A study of Mus musculus with 134 samples.

Results

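The 10 naive pluripotency genes Nanog, Zfp42, Klf2, Klf4, Klf5, Esrrb, Tbx3, Tfcp2l1, Prdm14 and Nr0b1 were followed through every expression library of mouse embryonic stem cells (mESCs) that was analysed here. They were taken from a list of genes of the naive state, not from their levels, and all 10 were found among the 25209 genes of the bulk count tables and in both single-cell tables. The study separated cytoplasmic RNA from nuclei, so that SET-seq reads the RNA and a histone mark (H3K4me3 or H3K27me3) of the same cells. Here the RNA of 54 bulk libraries, in 27 conditions of 2 libraries each, and of single cells from 2 assays was used. All libraries are labelled E14, an mESC line of strain 129/Ola, grown on gelatin with serum and LIF, and the bulk cells were untreated. The wild-type (WT) bulk libraries form 8 sets. In 4 in vitro sets, total RNA was reverse transcribed and tagmentated with Tn5 in the tube: 6 libraries with 25, 50 or 100 ng/µl of Tn5, 6 with 300 ng, 3 ng or 30 pg of RNA, 8 tagmentated at 16 °C and 8 at 37 °C for 5, 10, 15 or 30 min. A further 3 sets hold cytoplasmic RNA: 8 SET-seq libraries without antibody from 10, 100, 1000 or 10000 cells, and 6 libraries each from H3K4me3 and H3K27me3 SET-seq with 100, 1000 or 10000 cells. The last set is a pair of ligation-based RNA-seq libraries from poly-A RNA. Against these stand the 4 libraries of Aebp2 knockout (KO) cells, made in the H3K27me3 SET-seq assay from 2 CRISPR/Cas9 clones, KO1 and KO2, with 2 libraries each. AEBP2 is an accessory protein of PRC2, the complex that writes H3K27me3. Each KO line is 1 clone, so the genotype is sampled by 2 clones only. The study calls the 2 libraries of a condition independent for tagmentation at 16 °C and 37 °C and for each KO clone, and for the other sets the sources used here do not say whether they came from separate cultures. The single cells were treated for 12 h with Wnt3a-coated beads, and the study collected the daughter cell at the bead (proximal) and the one away from it (distal).

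Naive mESCs hold a network of transcription factors that activate one another and keep the cells from leaving for the formative and primed states of the epiblast. NANOG stands at its centre and stabilises self-renewal. KLF4 and TFCP2L1 are induced by LIF through STAT3, KLF2 and KLF5 are related zinc-finger factors that share sites with KLF4, ESRRB is released from TCF7L1 repression by Wnt or by inhibition of GSK3, and TBX3 acts downstream of LIF and PI3K. PRDM14 limits FGF signalling and DNA methylation, NR0B1 (DAX1) is a nuclear receptor that binds OCT4, and Zfp42 encodes REX1, a reporter of the naive state. In cultures with serum and LIF, several of these genes are known to vary from cell to cell.

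On mm9, the build of the count tables, Nanog lies on chromosome 6 from 122657507 to 122664651, Zfp42 and Klf2 on chromosome 8 from 44380421 to 44392363 and from 74842961 to 74845553, and Klf4 on chromosome 4 from 55540009 to 55545347. Klf5 lies on chromosome 14 from 99697910 to 99712628, Esrrb on chromosome 12 from 87702067 to 87862578, Tbx3 on chromosome 5 from 120120871 to 120134733, and Tfcp2l1 and Prdm14 on chromosome 1 from 120524522 to 120581745 and from 13103509 to 13117244. Nr0b1 lies on chromosome X from 83437114 to 83441285. The bulk values are counts over the exons of these genes, while the paper describes its single-cell analysis as using reads on exons and introns. Since the promoters of 3 genes are referred to below, the 250 bases before their RefSeq start are given on GRCm38.p6, 5′ to 3′ on the strand of the gene. Klf4 is shown because its KO libraries lay below all WT libraries, and Nanog and Esrrb because they differed most between WT sets in the direction opposite to Klf4. RefSeq lists more than one start for Nanog and Esrrb, and the most upstream window is printed. Capitals mark matches to the motifs named after the sequences.
Klf4 (chr4:55532476-55532725, minus strand): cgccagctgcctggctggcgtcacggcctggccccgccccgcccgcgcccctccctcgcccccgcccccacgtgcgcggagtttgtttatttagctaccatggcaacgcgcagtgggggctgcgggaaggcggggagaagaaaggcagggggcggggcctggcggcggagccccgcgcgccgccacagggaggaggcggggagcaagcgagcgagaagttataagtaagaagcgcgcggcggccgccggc
Nanog (chr6:122707239-122707488, plus strand): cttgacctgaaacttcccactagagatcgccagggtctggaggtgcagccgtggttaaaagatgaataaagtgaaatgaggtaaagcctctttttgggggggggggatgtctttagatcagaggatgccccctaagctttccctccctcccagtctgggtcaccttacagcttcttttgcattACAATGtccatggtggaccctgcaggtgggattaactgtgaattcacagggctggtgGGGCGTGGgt
Esrrb (chr12:86360867-86361116, plus strand): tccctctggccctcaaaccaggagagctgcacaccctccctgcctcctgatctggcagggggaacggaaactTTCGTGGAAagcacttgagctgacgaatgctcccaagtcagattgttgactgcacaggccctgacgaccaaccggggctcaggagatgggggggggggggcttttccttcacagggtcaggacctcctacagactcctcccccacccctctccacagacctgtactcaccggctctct

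Searched on both strands were ATGCAAAT (octamer of POU factors), CATTGT (SOX), GGGNGTGG (KLF), AAGGTCA (ESRRB), TTCNNNGAA (STAT) and CTTTGAT (TCF/LEF), and matches of different motifs did not overlap in these windows. RefSeq promoters were found for 7 of the 10 genes, with Klf5, Tbx3 and Prdm14 not in the table. The Nanog window held 1 SOX match, which starts 67 bases before the start on the opposite strand, and 1 KLF match 10 bases before it, while the Esrrb window held the palindromic STAT match 178 bases before the start and the Klf4 window held none of the 6. Of 32851 promoters in the table, 1.60% held the octamer, 10.7% the SOX, 15.9% the KLF, 4.08% the ESRRB, 7.02% the STAT and 3.21% the TCF/LEF letters. The Klf4 window was also the richest in G and C of the 7 genes, at 74.0% against a median of 52.4% over all promoters.

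Total counts ranged from 235040 to 21520982 per bulk library, and from 1964974 to 2351822 in the KO libraries. The rRNA precursor gene Rn45s took 1.54% to 84.6% of them (48.8% to 56.7% in KO) and was removed before depth-scaled counts (CPM) were calculated. Aebp2 had 15.0 to 49.7 CPM in the KO libraries and was lower there than in 7 of the 8 WT sets (edgeR, adjusted p below 0.05), with a log2 fold of -0.63 and no call against SET-seq without antibody. Hprt, which ES-E14TG2a cells are known to lack, separated the libraries in another way. It was listed at 0 to 2.14 CPM in KO and at 0 to 1.29 CPM in the 4 in vitro sets, but at 66.2 to 478 CPM in SET-seq without antibody, 273 to 445 in H3K4me3 SET-seq, 291 to 485 in H3K27me3 SET-seq and 181 to 184 in ligation-based RNA-seq. The labels of the latter 4 sets name the same E14 line, and for these a difference of KO from WT and a difference of stock cannot be told apart. The in vitro sets share the low Hprt of the KO clones, but they hold total RNA made by another protocol. Fewer cells in a naive state and less RNA of a gene per cell cannot be told apart in bulk libraries either. Markers of mESCs (Pou5f1, Sox2, Sall4, Utf1, Lin28a and Tdgf1, summed) reached 1248 to 2797 CPM in every set, while those of primitive endoderm and of fibroblasts summed to at most 37.1 and 28.8 CPM.

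Klf4 was lower in Aebp2 KO than in each of the 8 WT sets, and it was the only one of the 10 genes whose KO libraries lay below or above all 50 WT libraries. It had 60.8 and 68.4 CPM in KO1 and 78.5 and 53.4 CPM in KO2. In WT it ranged from 211 to 515 CPM in SET-seq without antibody (median 274), from 319 to 406 in H3K4me3 SET-seq (median 361), from 314 to 436 in H3K27me3 SET-seq (median 363) and was 548 and 552 in ligation-based RNA-seq. The highest KO library thus stayed below the lowest of the WT libraries, on CPM, on TMM-scaled CPM and with Rn45s left in the totals. In the in vitro sets it had 432 to 666 CPM at 16 °C (median 521), 651 to 724 at 37 °C (median 686), 575 to 776 in the RNA dilution (median 653) and 888 to 2018 in the Tn5 set (median 1321). The latter 3 sets lay above ligation-based RNA-seq, and the 16 °C libraries overlapped with it and with SET-seq without antibody. In the Tn5 set the libraries numbered 1 had 1710, 2018 and 1822 CPM and those numbered 2 had 888, 932 and 900 CPM. Klf5 split in the same way, at 608 to 686 against 410 to 444 CPM, as did Tbx3, at 355 to 446 against 238 to 274 CPM. The log2 fold of KO against WT was -2.47 ± 0.11 (SE) for H3K27me3 SET-seq (5.53-fold lower, adjusted p = 1.97e-09), -2.44 ± 0.12 for H3K4me3 SET-seq, -2.25 ± 0.21 for SET-seq without antibody and -2.80 ± 0.11 for ligation-based RNA-seq. Against the in vitro sets it was -3.39 ± 0.10 at 37 °C, -3.09 ± 0.10 at 16 °C, -4.49 ± 0.32 for the Tn5 set and -3.31 ± 0.15 for the RNA dilution. As a background, of 5293 genes with at least the mean CPM of the lowest of the 10 (Prdm14), 1.42% had all KO libraries below every WT library and 2.51% had all above. The SE covers the spread between the libraries of a condition and not the spread between clones.

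**Figure D1:**
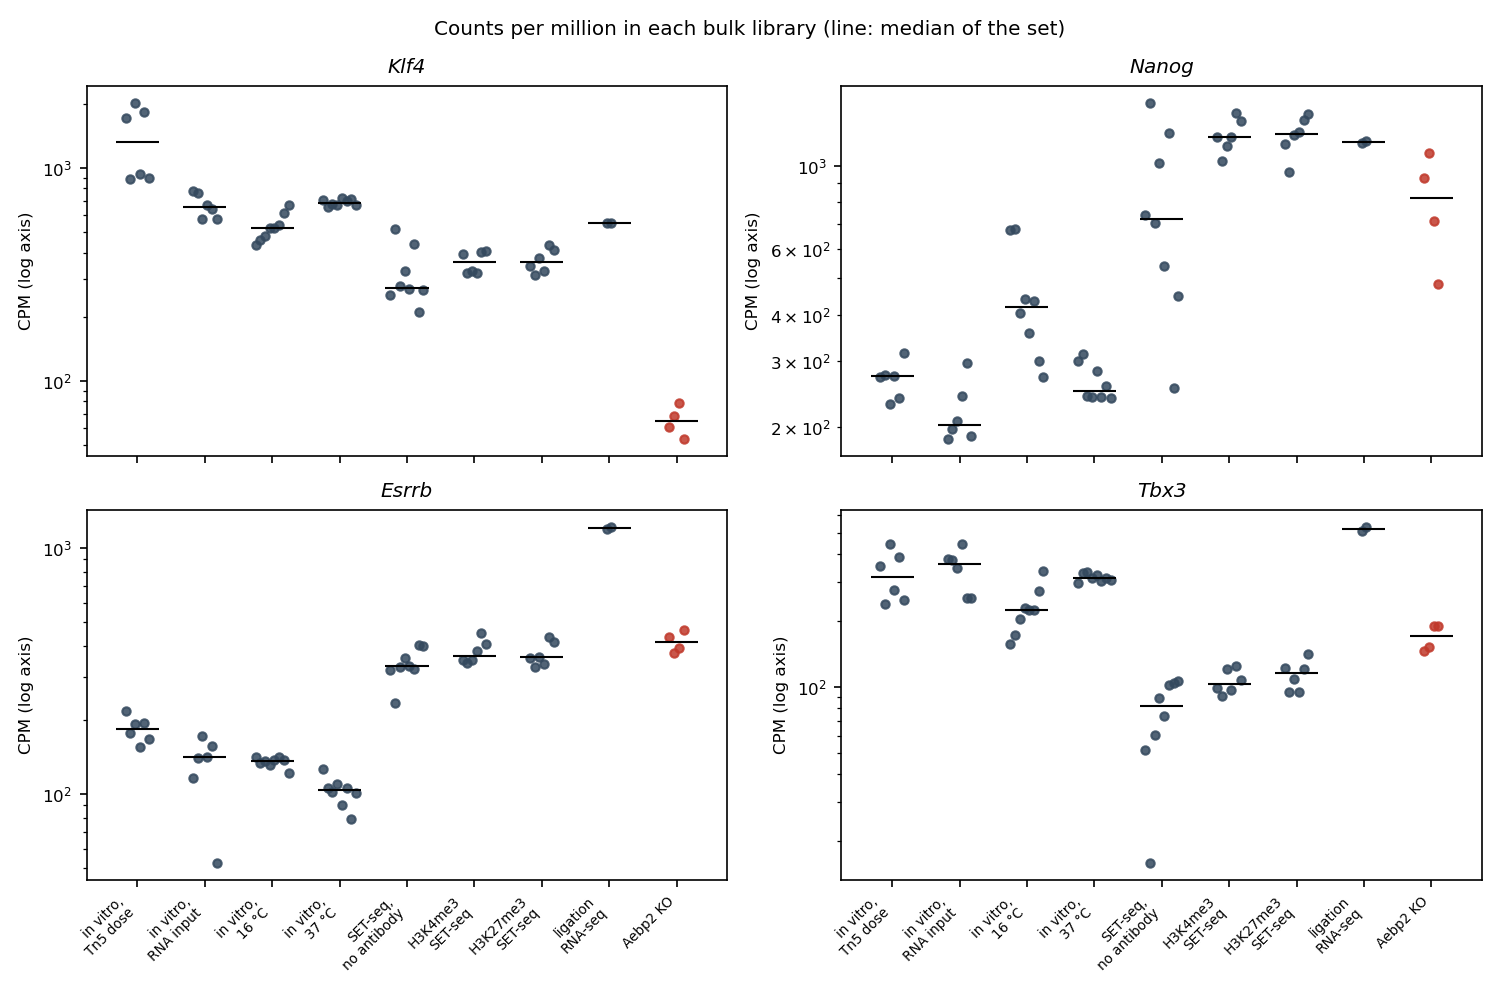
CPM (log axis) of Klf4, Nanog, Esrrb and Tbx3 in each of the 54 bulk libraries, with 1 point per library, the set on the x axis and a line at the median of the set. The 4 KO libraries (red) lie at 53.4 to 78.5 CPM for Klf4, below the lowest WT library at 211 CPM, while for the other 3 genes they lie inside the range of the WT sets.

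Against H3K27me3 and H3K4me3 SET-seq, the 4 KO libraries together had less Klf4, Zfp42, Tfcp2l1, Prdm14 and Nanog, and more Klf2 and Tbx3. KO2 alone kept all of these calls against H3K27me3 SET-seq, whereas KO1 alone kept those of Klf4, Zfp42, Tfcp2l1 and Klf2. In H3K27me3 SET-seq, 7 of the 10 genes passed the test, 2 higher and 5 lower, where 51.0% of 11446 genes tested passed, 24.6% higher and 26.4% lower. The median log2 fold of the 10 genes was -0.28 against -0.03 over all genes. The share of the 10 genes called is to be read against these. Zfp42 had 329 and 427 CPM in KO1 and 442 and 410 CPM in KO2, below the 642 to 759 CPM (median 680) of H3K27me3 SET-seq, a log2 fold of -0.76 ± 0.08. Tfcp2l1 had 404, 453, 390 and 429 CPM in KO against 546 to 720 (median 617), with -0.54 ± 0.08, and again the groups did not overlap. How many of all genes lacked such overlap was not counted for this set, so it is no result about these genes alone. Klf2 went the other way, with 1060, 1120, 950 and 1084 CPM in KO against 718 to 818 (median 794) and a log2 fold of 0.47 ± 0.07. Tbx3 had 145, 151, 188 and 189 CPM against 94.8 to 141 (median 115), a log2 fold of 0.59 ± 0.11. Nanog (-0.61 ± 0.09) and Prdm14 (-0.86 ± 0.19) were called lower, although their KO libraries overlapped with WT. With KO1 alone the log2 fold was 0.35 for Tbx3 (adjusted p = 0.0623), -0.46 for Prdm14 (0.131) and -0.29 for Nanog (0.0546). Klf5 (-0.01 ± 0.10), Nr0b1 (-0.02 ± 0.14) and Esrrb (0.20 ± 0.09) did not pass.

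H3K4me3 SET-seq gave the same 7 calls in the same directions, from WT libraries of their own but the same KO libraries. Here 57.4% of 10538 genes passed, 27.7% higher and 29.7% lower. The log2 folds were -0.61 for Nanog, -0.79 for Zfp42, 0.47 for Klf2, -2.44 for Klf4, 0.69 for Tbx3, -0.53 for Tfcp2l1 and -0.97 for Prdm14. Against SET-seq without antibody, 4 of 10 genes passed, with 40.1% of 10266 genes called, 22.2% higher and 17.8% lower. These were Klf4 and Zfp42 (-0.65 ± 0.18), which were lower, and Klf2 (0.68 ± 0.19) and Tbx3 (1.15 ± 0.28), which were higher. For these genes the KO libraries did not overlap with WT. The share of all genes without overlap was not counted here, nor for the in vitro and ligation-based sets that follow, alone or together. Nanog had a log2 fold of 0.11 ± 0.21 in this comparison, and its WT libraries ranged from 254 to 1477 CPM, with the 2 highest values, 1477 and 1227 CPM, in the 2 shallowest libraries, the second ones of 10 and 1000 cells, where they rest on 278 and 240 counts. Without these 2 libraries, 6 of the 10 genes passed, but the share of all genes in that fit is not printed here. With libraries left out in other ways, 2499 to 7841 of all genes were called.

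Compared with RNA tagmentated in vitro, Nanog and Esrrb were higher in KO and Klf4, Klf5 and Tbx3 were lower in all 4 sets. At 37 °C, 9 of 10 genes passed, 6 higher and 3 lower (67.3% of 10233 genes called, 32.9% higher and 34.4% lower). At 16 °C it was 8, 4 in each direction (68.2% of 12476 genes, 31.4% and 36.7%), in the Tn5 set 7, 3 higher and 4 lower (59.5% of 12622 genes, 27.6% and 31.9%), and in the RNA dilution 7, 4 higher and 3 lower (38.4% of 10491 genes, 26.5% and 11.9%). In the RNA dilution the median over all genes lay at 0.26, so that small positive values there are to be read against it. Nanog had 929 and 1086 CPM in KO1 and 713 and 484 CPM in KO2. WT Nanog ranged from 239 to 314 CPM at 37 °C, 230 to 316 in the Tn5 set and 186 to 296 in the RNA dilution, all below KO, and from 272 to 679 at 16 °C, which overlapped. The log2 folds were 1.57 ± 0.08, 1.42 ± 0.17, 1.84 ± 0.18 and 0.79 ± 0.08 in that order. Esrrb had 434, 373, 393 and 464 CPM in KO and 52.6 to 217 CPM over the 28 in vitro libraries, so that no in vitro library reached KO, and its log2 folds ranged from 1.07 ± 0.14 (Tn5) to 2.02 ± 0.09 (37 °C).

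Klf5 had 256, 292, 220 and 222 CPM in KO, below the 343 to 686 CPM of the in vitro libraries, with log2 folds from -1.21 ± 0.18 (Tn5) to -0.81 ± 0.08 (16 °C). Tbx3 was lower by log2 folds of -0.89 at 37 °C, -0.48 at 16 °C, -1.05 in the Tn5 set and -0.97 in the RNA dilution, and it overlapped with WT at 16 °C only. So Tbx3 was higher in KO than in the 3 cytoplasmic sets and lower than in the 4 in vitro sets, and Nanog showed the opposite order for H3K4me3 and H3K27me3 SET-seq. Klf2 was higher than at 37 °C (0.43), at 16 °C (0.73) and in the RNA dilution (0.72). In the RNA dilution Klf2 overlapped with KO, the 300 ng libraries had 970 and 923 CPM, and against these alone the log2 fold was 0.03 (adjusted p = 0.856). The call was also lost without either KO1 library or without the second KO2 library, and held in 11 of 15 alternatives. It was lower than in the Tn5 set (-0.70), where WT had 1276 to 1774 CPM. Tfcp2l1 was called higher in 3 of the 4 sets (0.48 to 0.56), with 0.18 in the RNA dilution. Nr0b1 was called higher at 37 °C (0.73) and in the RNA dilution (1.53), where the log2 fold was -0.01 against the 300 ng libraries alone and the 2 libraries of 30 pg held 24 and 0 counts, and lower at 16 °C (-0.38). Zfp42 was called at 37 °C only (0.33 ± 0.08), and Prdm14 in none of the 4 (0.00 to 0.19).

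In ligation-based RNA-seq, 8 of 10 genes passed, 2 higher and 6 lower in KO, where 68.6% of 9607 genes were called, 32.4% higher and 36.2% lower. Tfcp2l1 had 1566 and 1597 CPM there, against 390 to 453 in KO (-1.63 ± 0.08). Esrrb had 1191 and 1220 CPM (-1.25 ± 0.09) and Tbx3 510 and 533 CPM (-1.36 ± 0.09), both above all KO libraries and above all other WT libraries. Klf2 was higher in KO (1.63 ± 0.09), and Prdm14 was lower (-0.95 ± 0.16). Nr0b1 was called higher (0.41 ± 0.11), but its KO libraries overlapped with WT and the call held in 8 of 14 alternatives, with log2 folds down to 0.16 and adjusted p up to 0.445. It was lost in DESeq2, without the filter on low counts, with all libraries in 1 fit, with KO1 alone and without either ligation library. Nanog was called lower (-0.30 ± 0.10), with -0.63 for KO2 alone and 0.03 for KO1 alone. Zfp42 had 329 to 442 CPM in KO below 456 and 458 CPM in WT, but a log2 fold of 0.10 ± 0.09 on the TMM scale, so that its direction depends on the scale and no call was made.

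**Figure D2:**
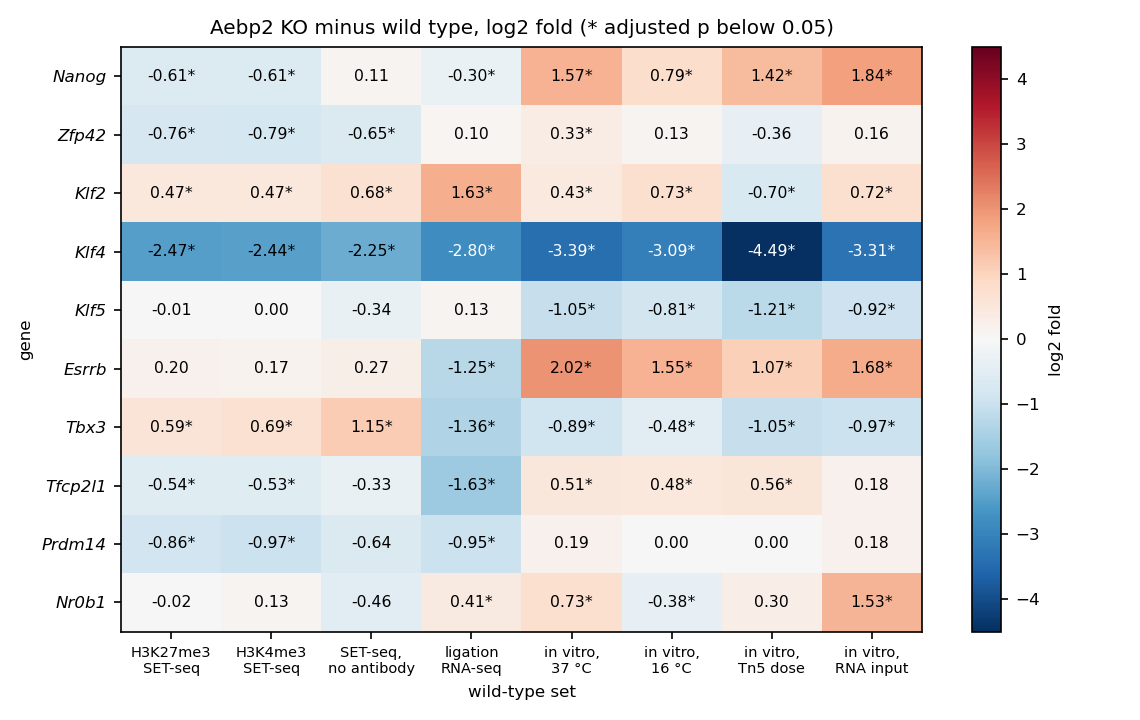
Log2 fold of Aebp2 KO against each WT set (columns) for the 10 genes (rows), with a star where the adjusted p was below 0.05. The 8 columns share the 4 KO libraries. The Klf4 row is negative throughout, from -4.49 to -2.25, while Nanog and Tbx3 have opposite signs in H3K27me3 or H3K4me3 SET-seq and in the in vitro sets.

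Nanog was the only one of the 10 genes that differed between the clones by the test. Between KO1 and KO2, 1 of 10 genes was called, with 10.0% of 8551 genes called, 5.20% of all higher in KO1. Nanog was 1.58-fold higher in KO1 (log2 fold 0.66 ± 0.14, adjusted p = 0.00303), with the KO1 libraries (929 and 1086 CPM) above the KO2 libraries (713 and 484 CPM). Each clone alone was still above the 37 °C libraries (1.90 for KO1 and 1.25 for KO2), while against H3K27me3 SET-seq the log2 fold was -0.29 (adjusted p = 0.0546) for KO1 and -0.93 for KO2. Prdm14 had 30.4 and 44.9 CPM in KO1 and 16.9 and 22.2 in KO2, a log2 fold of 0.83 ± 0.37 without a call (adjusted p = 0.158), from 17 to 42 counts per library. Klf4 differed by -0.12 ± 0.26. Aebp2 itself was lower in KO1 than in KO2 (-1.46 ± 0.39).

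Per length of exon, the genes spanned more than an order of magnitude, and their order differed between sets. By the median RPKM, calculated without Rn45s, Klf2 was highest in KO (590), followed by Nanog (366), Zfp42 (232), Klf5 (138), Esrrb (89.4), Tfcp2l1 (44.9), Nr0b1 (44.2), Tbx3 (35.0), Klf4 (21.2) and Prdm14 (10.2). Nanog was above Zfp42 in 3 of 4 KO libraries and Tfcp2l1 above Nr0b1 in 3 of 4, so these neighbours did not separate. Klf4 thus took rank 9 in KO, where it took rank 5 in H3K27me3 SET-seq (119 RPKM), H3K4me3 SET-seq (119), SET-seq without antibody (89.9), ligation-based RNA-seq (181) and at 16 °C (171), rank 3 at 37 °C (225) and in the RNA dilution (214) and rank 2 in the Tn5 set (434). Nanog was highest in H3K27me3 SET-seq (545 RPKM), H3K4me3 SET-seq (534) and ligation-based RNA-seq (518), above the next gene in all libraries of each. Klf2 was highest in the Tn5 set (877), at 37 °C (431), at 16 °C (323), in the RNA dilution (351) and in SET-seq without antibody (356), where Zfp42 (354) lay beside it and was below it in 6 of 8 libraries. By the median, Prdm14 was lowest in all sets, at 9.55 to 24.7 RPKM, but not in every library. Tbx3 was above it in 5 of 8 libraries of SET-seq without antibody, 4 of 6 of H3K4me3 and 5 of 6 of H3K27me3 SET-seq. Nr0b1 was above it in 4 of 6 libraries of the RNA dilution, where Klf4 was above Zfp42 in 3 of 6.

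Most of the 10 genes already differed between WT sets. SET-seq without antibody was compared with the in vitro 37 °C libraries, and 9 of 10 genes passed, 6 higher and 3 lower, with 55.7% of 11980 genes called, 23.8% higher and 31.9% lower. Nanog (2.63-fold, adjusted p = 1.43e-06), Esrrb (1.71 ± 0.16), Nr0b1 (1.15 ± 0.18), Zfp42 (0.92 ± 0.12), Tfcp2l1 (0.77 ± 0.11) and Prdm14 (0.73 ± 0.21) were higher in SET-seq. Tbx3 (-2.09 ± 0.18), Klf4 (-1.21 ± 0.12) and Klf5 (-0.78 ± 0.13) were lower, and Klf2 (-0.31 ± 0.15) did not pass. The median over all genes was -0.11 and that of the 10 genes 0.75. Hprt separated these sets as well, as given above. Stock, RNA compartment and protocol change together here and cannot be told apart.

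Within the in vitro libraries the shifts were smaller. The Tn5 set exceeded the 37 °C libraries for 5 of 10 genes: Klf2 (1.02 ± 0.11), Klf4 (1.00 ± 0.19), Esrrb (0.86 ± 0.10), Zfp42 (0.59 ± 0.10) and Nr0b1 (0.34 ± 0.13), where 58.4% of 12340 genes were called, 31.3% of all higher. Socs3 was also higher there (2.57), as were all 3 fibroblast markers tested, Col1a1 (4.20), Col1a2 (2.30) and Thy1 (2.12), and Gata4 (1.40), 1 of 5 primitive endoderm markers tested. The 5 fibroblast markers summed to 17.3 to 28.8 CPM in the Tn5 set and 3.19 to 6.61 CPM at 37 °C, where Col3a1 and Postn were at 0, and their part in the values of the 10 genes was not tested. When the libraries numbered 1, or those numbered 2, of the 37 °C set were left out, the log2 folds of Klf4 were 1.03 and 0.97. Its call held in 11 of 13 alternatives, with log2 folds from 0.80 to 1.17. The 300 ng libraries, tagmentated under the conditions of the 5 min libraries at 37 °C, gave a call for Nanog only (-0.66 ± 0.19, adjusted p = 0.0147), at 186 and 198 CPM against 301 and 314 CPM, while 19.6% of 10536 genes were called, 15.0% of all lower. This call was lost without filtering low counts and with the replicate number as a block (adjusted p = 0.104), where none of the 10 genes passed. The share of all genes in the blocked fit is not printed here. The Nanog call held in 6 of 10 alternatives, with log2 folds from -0.71 to -0.53. With time at 16 °C, Nanog had 674 and 679 CPM after 5 min, 404 and 441 after 10 min, 357 and 436 after 15 min and 300 and 272 after 30 min. Klf5 had 343 and 347 CPM after 5 min and 485 and 570 after 30 min in these libraries. At 37 °C, Nanog had 301 and 314 CPM after 5 min and 257 and 239 after 30 min. The course over time was not tested.

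Over the 23 WT conditions whose libraries held more than 500000 counts each with Rn45s, several of the 10 genes could be sorted into groups by the sign of r. Pearson's r of log2(CPM + 1) was 0.80 for Klf4 and Tbx3, 0.78 for Klf4 and Klf5 and 0.76 for Klf5 and Tbx3. It was 0.85 for Esrrb and Tfcp2l1, 0.80 for Nanog and Esrrb, 0.77 for Zfp42 and Esrrb and 0.76 for Nanog and Zfp42. Between these groups it was negative, down to -0.95 for Nanog and Klf5 and -0.81 for Klf5 and Tfcp2l1. Klf2 went with Klf4 (0.63) and less with Klf5 (0.42), and Nr0b1 with Prdm14 (0.75). The 30 pg condition is among the 23, and its second library held 323449 counts without Rn45s. Both Nr0b1 and Prdm14 had 0 counts in that library, so their r may rest on missing reads. It was not calculated without this condition. Of the 45 pairs, 22 had a positive and 23 a negative r (48.9% positive), with a median of -0.02, against a median of 0.03 over the pairs of 5302 genes at least as high on average as the lowest of the 10, of which 52.4% were positive. Over those pairs r ranged from -0.99 to 0.99, so the values of the 10 genes lay within the range of all genes. The conditions of a set share protocol and labelled stock, so the points are not independent. To the mean of the 10 standardised values, the nearest other genes were Tfap2c (r = 0.941), Stox2 (0.932), Slc43a3 (0.913), Fam43a (0.911) and Cbx2 (0.898), over the same 23 conditions.

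**Figure D3:**
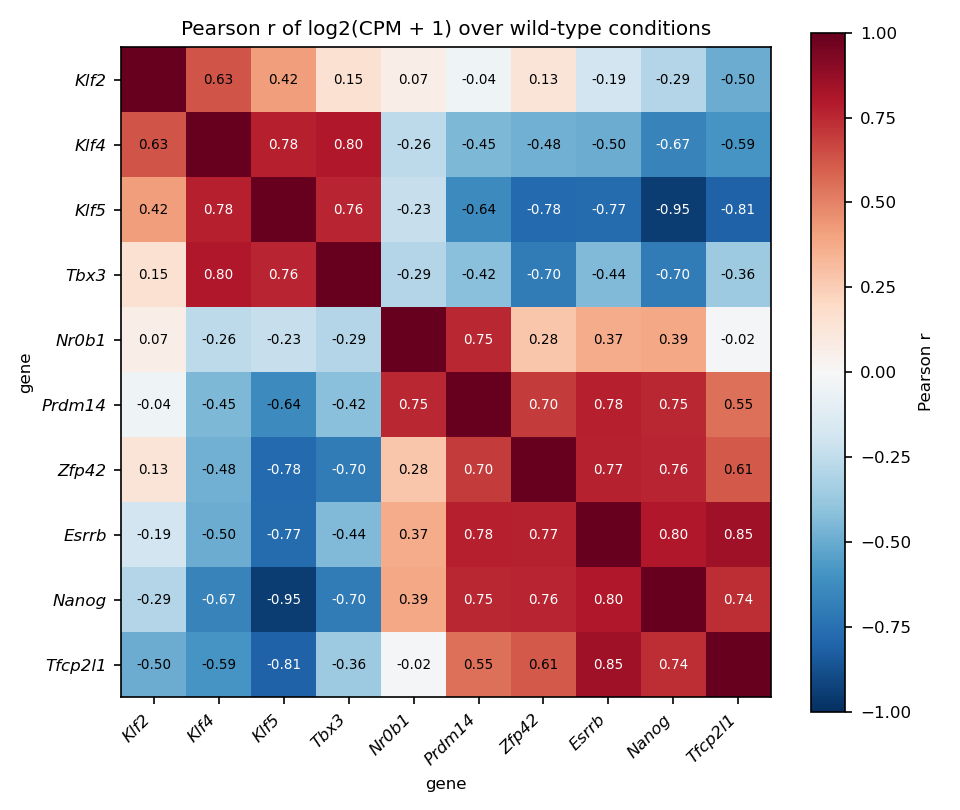
Pearson's r of log2(CPM + 1) between the 10 genes over 23 WT conditions, both axes in the same order. A block of Klf2, Klf4, Klf5 and Tbx3 and one of Prdm14, Zfp42, Esrrb, Nanog and Tfcp2l1 show positive r inside, and r between them reaches -0.95 for Nanog and Klf5.

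Genes of the pathways around the 10 were counted for comparison, all over the same tests. Among 7 genes of LIF and STAT3 signalling, 1 rose and 3 fell in KO against H3K27me3 SET-seq, or 57.1% of them, near the 51.0% of all genes called. The largest changes were Bcl3 (-3.48), Socs3 (-3.03), a feedback inhibitor that STAT3 induces, Stat3 itself (-1.65) and Jak1 (1.04). The median of this list was -0.07, against -0.03 over all genes. Against the 37 °C libraries 2 rose and 5 fell (100%, where 67.3% of all genes were called), with Socs3 at -3.78 and Bcl3 at -3.55, and against ligation-based RNA-seq 1 rose and 6 fell (100%, where 68.6% were). Among 10 other genes of the naive state, 3 rose and 5 fell against H3K27me3 SET-seq (80.0% called, median -0.29) and 2 rose and 8 fell against 37 °C (100%, median -0.53), where Gbx2 was at -2.35, Dppa3 at -2.16, Pecam1 at -2.04 and Tcl1 at -1.02. Of 10 genes of Wnt and GSK3 signalling, 7 rose and 2 fell against H3K27me3 SET-seq (90.0% called, median 0.68), led by Lef1 (6.10), Apc (2.09), Tcf7l2 (1.39) and Axin2 (1.22), while 3 rose and 5 fell against 37 °C (80.0%, median -0.26), where Lef1 was at -1.04. These shares are to be read against the same 51.0% and 67.3% of all genes, which also hold for the lists that follow.

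Most genes of the formative and primed epiblast were higher in KO, whichever WT set was used. Of 11 tested in H3K27me3 SET-seq 8 rose and none fell (median 2.67, with 24.6% of all genes higher), with Lefty1 at 3.78, Zic2 at 3.28, Dnmt3a at 3.08 and Sox3 at 2.97. At 37 °C, 9 of 10 tested rose (median 1.48, with 32.9% of all genes higher), with Lefty1 at 3.02, Dnmt3a at 2.51, Otx2 at 2.41 and Zic2 at 2.24. In the other sets 7 to 9 of the 10 or 11 tested rose, where 22.2% to 32.4% of all genes were higher. A fall was called for 1 gene each against H3K4me3 SET-seq, ligation-based RNA-seq and the Tn5 set, there Pou3f1 (-2.68). Summed over 12 genes, this list reached 1138 to 1417 CPM in KO and 295 to 730 CPM in all WT libraries. Of the mESC markers, Lin28a (1.86) and Sall4 (1.10) rose and Tdgf1 (-0.88) fell against H3K27me3 SET-seq, with 2 of 6 higher and 1 lower. Markers of other lineages summed to at most 114 CPM per lineage in any bulk library, and Nes was higher in KO1 than in KO2 (1.69 ± 0.31). Against H3K27me3 SET-seq, Cdx2 (4.04) and Eomes (2.15) rose among 3 trophoblast markers tested and Nes (2.00) among 2 neural ones, none of 1 mesoderm and 2 fibroblast markers passed and no primitive endoderm marker was high enough to be tested. Cdx2 went the other way against the 37 °C (-0.99) and 16 °C libraries (-0.78), where Gata3 (4.59 and 4.79) and Eomes (1.63 and 1.88) were higher in KO. The mesoderm marker T fell against the 37 °C libraries (-4.53). Elf5, a defining trophoblast factor, was at 0 in all KO libraries, as in all WT libraries of SET-seq without antibody and of H3K4me3 SET-seq. Those of trophoblast summed to 42.7 to 52.5 CPM in KO and 0 to 64.9 CPM in WT, of mesoderm to 4.45 to 13.7 and 0 to 114, of primitive endoderm to 8.55 to 13.9 and 1.38 to 37.1, of fibroblasts to 1.78 to 15.7 and 0 to 28.8, and of neural cells to 28.8 to 110 and 0 to 71.4 CPM. Their part in the values of the 10 genes was not tested.

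In the single cells, 335 of 384 cells of the H3K27me3 assay and 210 of 368 cells of the H3K4me3 assay were kept, those in which over 1000 but under 5000 genes had a read. The values are reads without molecular identifiers, so intervals cover counting error only. Experiments 8 to 10 of the H3K27me3 assay stood apart. They gave 165 of the passing cells and more reads per cell than the other 7 experiments (median 239521 against 60378), yet a read of Actb in 10.6% to 27.4% of cells, against 94.9% to 100% in the others. Pou5f1 was read in none of their cells, but also in none of the 7 cells of experiment 1 and in only 7.69% to 35.7% of cells of experiments 2 to 7. Nanog was read in 0% to 4.84% of their cells, Zfp42 in 0% to 11.3%, Klf2 in 4.26% to 7.14%, Klf4 in 0% to 3.23% and Klf5 in 0% to 6.45%, while Tbx3 was read in 37.5% to 87.1% and Tfcp2l1 in 66.1% to 90.3%. Detection, the number of calls, the counts of pairs and the cluster values below are therefore given with and without these experiments, a choice made after the values were seen, while thinned values, log2 folds by position and named pairs rest on all experiments. Hprt was read in 22.8% of proximal and 16.5% of distal cells of the H3K27me3 assay, in 36.0% and 28.6% without experiments 8 to 10, and in 43.9% and 49.5% of those of the H3K4me3 assay. The cell barcodes are reused: 96 distinct barcodes served 384 cells of the H3K27me3 assay and 80 served 368 cells of the H3K4me3 assay, but no barcode occurred more than once in an experiment.

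Each cell held reads of only some of the 10 genes. In the H3K4me3 assay the mean was 4.21 genes in proximal and 4.51 in distal cells, 48.6% of cells held 5 or more, and 1.43% held none. Without experiments 8 to 10, the H3K27me3 assay gave 3.79 in proximal and 4.08 in distal cells, with 39.4% of cells at 5 or more. With them the means were 2.74 and 2.85 and 20.3% of cells reached 5. After thinning to 20000 reads per cell, which left 288 and 209 cells, the means fell to 0.883 in proximal and 1.16 in distal cells of the H3K27me3 assay and to 2.29 and 2.57 in those of the H3K4me3 assay. Esrrb was read most often in the H3K4me3 assay, in 75.2% of cells (Wilson interval 69.0% to 80.6%), followed by Nanog and Zfp42 (67.1% each), Klf2 (51.9%), Tfcp2l1 (48.1%), Klf4 (43.3%), Klf5 (41.4%), Tbx3 (19.5%), Nr0b1 (12.4%) and Prdm14 (10.0%). Without experiments 8 to 10 the H3K27me3 assay had Zfp42 at 65.3%, Nanog at 59.4%, Esrrb at 58.2%, Tfcp2l1 at 51.8%, Klf2 at 50.6%, Klf5 at 38.8%, Klf4 at 27.6%, Tbx3 at 24.7%, Nr0b1 at 11.2% and Prdm14 at 5.88%. With them, Tfcp2l1 (64.5%) and Tbx3 (40.9%) came first. Prdm14, the lowest gene in bulk by the median RPKM, was the least often read in both assays.

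**Figure D4:**
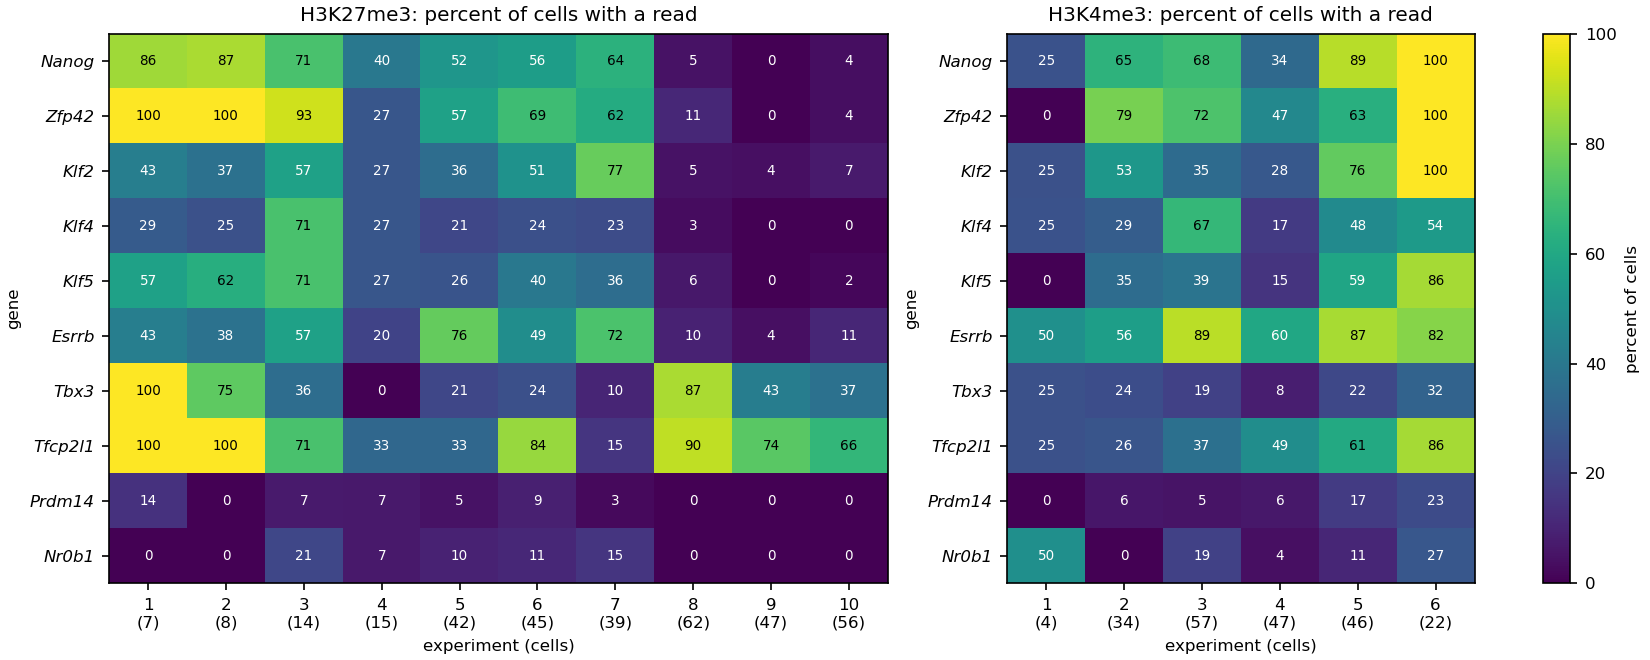
Percent of passing cells with at least 1 read of each gene (rows) in each experiment (columns, number of cells below), for the H3K27me3 assay (left) and the H3K4me3 assay (right). In H3K27me3 experiments 8 to 10 only Tbx3 (37.5% to 87.1%) and Tfcp2l1 (66.1% to 90.3%) were read in many cells.

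Whether the genes differ between the cell at the Wnt3a bead and its partner was tested on reads summed per experiment and position, with the experiment as a block. None of the 10 genes passed in either assay. Nor did any of the 11143 and 9102 genes tested (0% called in each), although 875 and 837 had an unadjusted p below 0.05 and DESeq2 called 83 and 336 genes, none of them among the 10. The estimates were wide. Nanog was at -0.93 ± 0.75 (log2, proximal minus distal) in the H3K27me3 assay and at -0.16 ± 0.78 in the H3K4me3 assay, and distal sums were higher in 6 of 9 and 3 of 5 experiments. Nr0b1 was at -4.22 ± 1.36 in the H3K27me3 assay (p = 0.00972, adjusted p = 0.510), higher in distal sums in 5 of 9 experiments and higher in proximal sums in none, but at 1.42 ± 2.29 in the H3K4me3 assay. In H3K27me3 experiments 3, 4 and 5 the distal sums held only 4, 1 and 7 reads of it, against 0, 0 and 1. In experiments 6 and 7 they held 470 and 192 reads, against 5 and 3. These came from 13.6% of 22 and 19.0% of 21 distal cells. Tbx3 was at -2.93 ± 1.46 in the H3K4me3 assay, where distal sums were higher in 5 of 5 experiments (0.583 to 8.70 CPM in proximal and 3.37 to 174 in distal sums), and at -0.82 ± 1.23 in the H3K27me3 assay. Klf4 was at 2.54 ± 1.30 and at -0.66 ± 1.11 in these assays. None of these passed, and at this depth and number of experiments differences of several-fold were not detectable. The number of the 10 genes called was also 0 without experiments 8 to 10 and when any single experiment was left out.

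Pairs of the 10 genes were read in the same cell about as often as their separate shares within each experiment and position predict, or slightly more. Of 45 pairs, 28 in the H3K4me3 assay had at least 20 expected cells, and 27 of them were observed more often than expected, with a median ratio of 1.06. Pairs of all genes read in enough cells to reach 20 expected had a median of 1.03, and 68.8% of them exceeded 1. In the H3K27me3 assay, 26 pairs had at least 20 expected cells, 22 exceeded 1 and the median was 1.09, against 1.03 and 77.7% for all pairs (percentile range 0.936 to 1.23). Without experiments 8 to 10 these were 20 of 25 pairs and 1.07, against 1.01 and 63.1%. Klf2 and Klf4 were read together in 33 cells of the H3K27me3 assay where 24.4 were expected (ratio 1.35), Nanog and Klf4 in 35 where 28.1 were expected (1.24) and Klf5 and Tbx3 in 29 where 23.4 were expected (1.24). The lowest ratios in this assay were 0.916 for Klf4 and Tfcp2l1, 0.970 for Nanog and Esrrb and 0.985 for the pair Klf2/Esrrb. In the H3K4me3 assay, Klf2 and Tbx3 had the highest ratio (31 cells against 24.0 expected, 1.29), then Klf5 and Tbx3 (26 against 20.3, 1.28) and Tbx3 and Tfcp2l1 (1.17). Nanog and Esrrb had the lowest (110 against 111, 0.991), then Klf5 and Tfcp2l1 (1.01) and Zfp42 and Klf5 (1.02). Deeper cells hold more genes of any kind, so the ratios were also taken at equal depth. After thinning, 15 pairs of the H3K4me3 assay reached 20 expected cells, 10 of which (66.7%) exceeded 1, against 58.0% of all pairs. Their median ratio was 1.11 (0.883 to 1.31), against 1.01 over all pairs. In the H3K27me3 assay 1 pair reached 20 expected cells after thinning, Nanog and Esrrb, with 1.04. Apart by position, 17 of 20 proximal and 18 of 23 distal pairs exceeded 1 in the H3K4me3 assay (85.0% and 78.3%, against 64.4% and 63.9% of all pairs). In the H3K27me3 assay 8 of 11 and 12 of 15 did (72.7% and 80.0%, against 72.1% and 71.5%), so the proximal pairs lay at the level of all pairs. Without experiments 8 to 10 it was 6 of 9 and 12 of 14 (66.7% and 85.7%, against 50.2% and 58.9%).

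**Figure D5:**
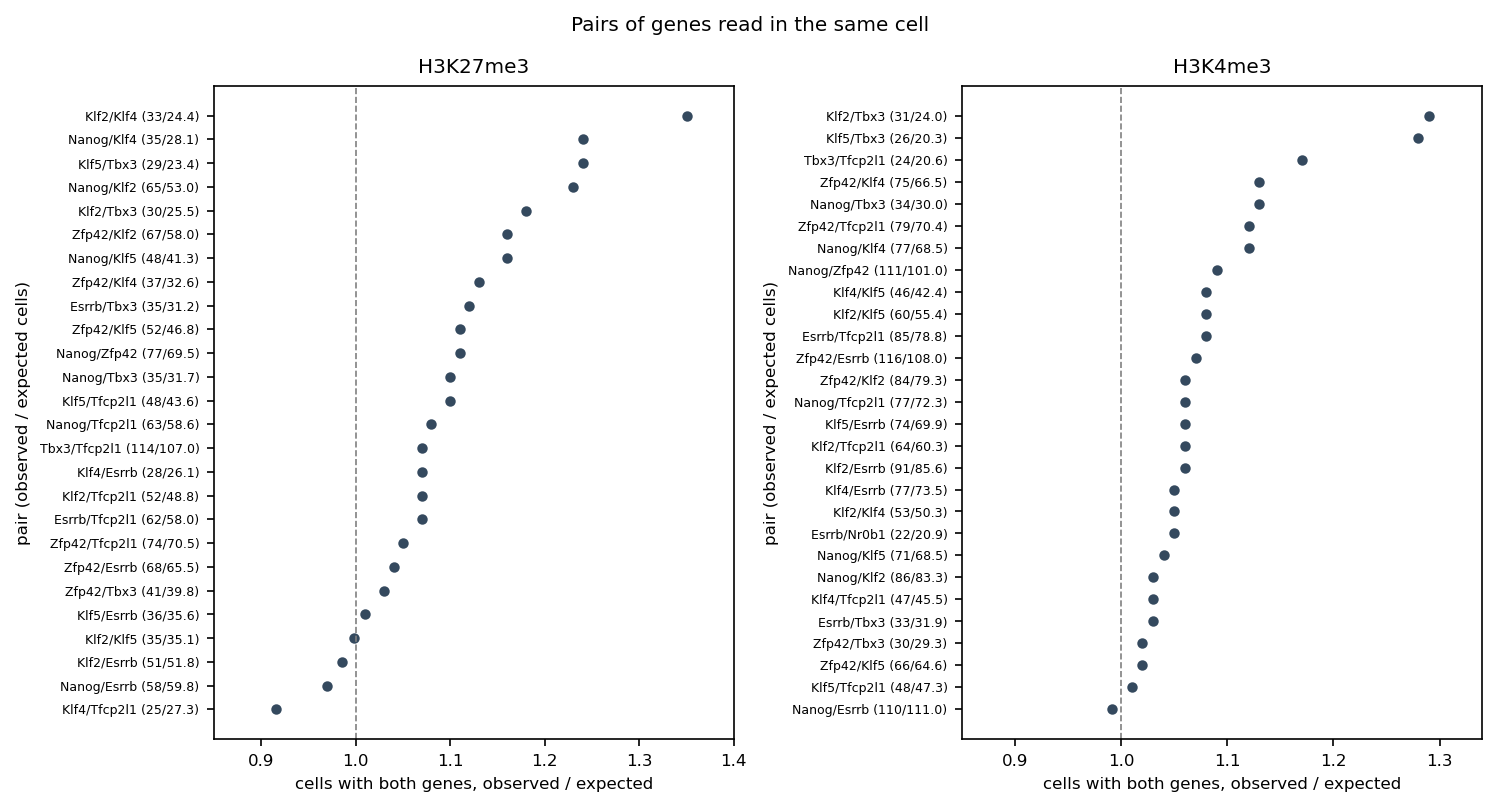
Ratio of observed to expected cells with a read of both genes, for pairs with at least 20 expected cells, in the H3K27me3 assay (left, 26 pairs) and the H3K4me3 assay (right, 28 pairs). The ratios lie between 0.916 and 1.35 and between 0.991 and 1.29, most of them just right of the dashed line at 1.

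The study clustered the cells of both assays together by the expression of selected genes and named the clusters Mix, Proxi and Dista by the positions of their cells. Since the clusters come from the same expression tables, the values in them are a description. In the H3K4me3 assay the mean number of the 10 genes per cell was 3.80 in Mix, 4.60 in Proxi and 4.92 in Dista, at median depths of 78190, 101760 and 100989 reads. In the H3K27me3 assay it was 2.20, 3.62 and 3.88, where Dista had the fewest reads (median 26855) and Mix the most (228060). Experiments 8 to 10 bore on this: without them Mix kept 55 of its 208 cells, and the means were 3.75, 3.94 and 4.09. Nanog was read in 56.6% of Mix, 72.0% of Proxi and 76.9% of Dista cells of the H3K4me3 assay and in 15.9%, 55.2% and 59.4% of those of the H3K27me3 assay, which became 50.9%, 64.0% and 63.1% without experiments 8 to 10. Nr0b1 was read in 20.3% of Dista and 5.17% of Proxi cells of the H3K27me3 assay (14 of 65 and 3 of 50 cells without these experiments), but in 9.62% and 10.7% of those of the H3K4me3 assay. Intervals for Proxi and Dista overlapped for Nanog in both assays (61.0% to 80.9% and 63.9% to 86.3% in the H3K4me3 assay).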

How the data were processed

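For the bulk libraries, trimming (Trim Galore 0.6.4), alignment to mm9 (STAR 2.5.4b) and counting of read pairs on exons (featureCounts, 2.0.0 or 2.0.1 in the file headers) were done by the authors. The deposited bulk values are these raw counts, with no normalization. For single cells the deposited values are raw counts too, of reads that carry no molecular identifier. The paper names zUMIs for these counts and an analysis over exons and introns. Positions and clusters of cells came from the paper's tables.

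CPM were calculated without Rn45s, and RPKM with the exon length in the files. KO was compared with every WT set, since the libraries used as WT are not given in the sources used here. edgeR 4.0.16 (TMM, its filter on low counts, quasi-likelihood test) was fitted on all genes with a mean per condition. The contrast was the mean of the groups of the first set minus that of the second, and calls had a Benjamini-Hochberg adjusted p below 0.05. Alternatives were DESeq2 1.42.0, its size factors, no filter, Rn45s kept, a replicate block, each clone alone, all libraries in 1 fit, the call rule of the study (unadjusted p below 0.05 and an absolute log2 fold above 1) and libraries left out. For single cells, limma 3.58.1 and other cell filters were added. The fits were tested on simulated data. Expected pairs were the product of both shares within each experiment and position, summed over these.

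The 10 genes and all lists were chosen with earlier results of these data known. Named beside the 10 genes were Aebp2, Hprt, at most 4 called genes per list with the largest absolute log2 fold, the 5 genes nearest to the mean of the 10, and the 3 highest and 3 lowest pairs. Actb and Pou5f1 were named after their values in the cells were seen. Replicate numbers were not taken to pair the groups compared, since in no comparison did every pair of conditions have a residual correlation over 0.1 (-0.260 to 0.792 over all). Within the Tn5 set, however, same-numbered libraries did deviate together (0.624 to 0.736 over 3 pairs of conditions). Depth ranged from 235040 to 21520982 counts. No 2 bulk libraries were identical (0 pairs). Genomic libraries were not analysed here. R 4.3.3 and Python 3.11.15 were used.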

Additional observations from a re-analysis of the deposited data

Results flagged for a closer look

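Among the 20 groups of experiments (10 genes in each assay), 1 gene had an experiment far from the rest by Dixon's test, which chance flags in about 1 of 20 groups. Klf4 was read in 71.4% of the 14 cells of H3K27me3 experiment 3, while the next experiment of that assay had 28.6% and the lowest 0%.

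The clones differed in Nanog. KO1 exceeded KO2 by 0.66 on the log2 scale (SE 0.14, adjusted p = 0.00303 in edgeR), the only one of the 10 genes called between them, and the difference was itself the tested contrast. That is the share of all genes, as 10.0% of 8551 genes were called between the clones. Over the alternatives the log2 fold of Nanog ranged from 0.42 to 0.93.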

How the results depend on the processing

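Over all comparisons, 175 of 202 settings kept the number of called genes among the 10 within 1.5 times, and of 1896 single values 1702 kept direction and call, 95 changed sign without a call in either fit, 54 lost and 43 gained a call and 2 called values changed sign. Nr0b1 in KO against the RNA dilution went to -0.01 against the 300 ng libraries alone, and Nanog in KO against ligation-based RNA-seq to 0.03 with KO1 alone. The study's rule of an unadjusted p with an absolute log2 fold above 1 left fewer of the 10 genes, by its own threshold on size: 1 against H3K27me3 and against H3K4me3 SET-seq, 2 against SET-seq without antibody and at 16 °C, 4 at 37 °C and in the RNA dilution, 5 against ligation-based RNA-seq, 0 between KO1 and KO2 and for 300 ng against 37 °C for 5 min, 1 for Tn5 against 37 °C and 5 for SET-seq against 37 °C. With 1 clone alone, the calls were 4 (KO1 against H3K27me3 SET-seq) and 2 (KO1 or KO2 against SET-seq without antibody), and with all libraries in 1 fit 7 against SET-seq without antibody. Leaving out libraries gave 3 to 8 calls for KO against SET-seq without antibody (8 when either all libraries numbered 1 or all numbered 2 of SET-seq were left out), 0 to 1 between clones (0 without the second KO1 library), 3 to 5 for Tn5 against 37 °C and 0 to 2 for 300 ng. Without the filter on low counts 300 ng had 0. The cause was not tested. For the study's rule, 1 clone alone, the joint fit, libraries left out and no filter, the share of all genes is not printed here. Those counts are therefore no result about the 10 genes alone.

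With the replicate block, 300 ng against 37 °C for 5 min had 0 calls among the 10 genes and the other comparisons stayed within 1.5 times, among them KO against the Tn5 set (8, with 7 unblocked) and Tn5 against 37 °C (5 in both), whose Tn5 libraries deviate by number. Residuals of same-numbered libraries had r of -0.109 between the clones and -0.207 for 300 ng, and the crossed replicate block, added after the data were seen, gave 2 and 4 calls among the 10 genes, and 1431 and 3914 among all genes. The count of all called genes moved by more than 1.5 times in 38 of 202 settings. With libraries left out it ranged from 182 to 1361 between clones, from 2499 to 7841 for KO against SET-seq without antibody, from 2886 to 6986 for KO against the RNA dilution, from 667 to 2676 for 300 ng and from 2317 to 8366 for SET-seq against 37 °C. Where 1 library was left in a condition, it was assumed to vary like the others. Klf4 in KO was lower and called against all 8 WT sets under every alternative run. Depth limits Prdm14 (17 to 42 counts per KO library) and the single cells.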
